A study of Mus musculus with 114 samples.

Results

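The insulin signalling and glucose uptake genes of the adipocyte are described here by 9 members, chosen by symbol: *Insr*, *Irs1*, *Irs2*, *Pik3r1*, *Akt1*, *Akt2*, *Slc2a4*, *Tbc1d4* and *Foxo1*. All 9 had a row among the 29132 genes measured, and all 9 were among the 10343 genes tested, whose mean log2(CPM + 1) over all mice was above 2.0. CPM are the reads of a gene per 1000000 reads on the listed genes, and 38 mice were compared.

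The adipocytes came from the perigonadal (epididymal) fat of male mice, C57BL/6 in the labels and C57BL/6J in the methods, which received chow (CD) or a high fat diet (HFD) for 8, 20 or 34 weeks from 6 weeks of age. Each diet had 6 mice at 8 and at 20 weeks, and at 34 weeks there were 8 mice on CD and 6 on HFD. The methods name a pair of control diets as the chow, and the labels do not say which mouse received which. The cells were the floating fraction of collagenase-digested fat pads, in which RNA of other cells can remain. Mice at a later time are also older.

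Insulin binds its receptor on the adipocyte, the receptor phosphorylates IRS adaptors, and these recruit PI3K, whose lipid product activates AKT. AKT inhibits the Rab GTPase-activating protein AS160 (*Tbc1d4*), so that vesicles with the glucose transporter GLUT4 (*Slc2a4*) reach the plasma membrane, and it keeps the transcription factor FOXO1 (*Foxo1*) out of the nucleus. White fat is a classical target of insulin, and uptake of glucose through GLUT4 and restraint of lipolysis are its best known responses there.

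The libraries held 9275711 to 15480388 reads per mouse, and 1 read was worth 0.0646 to 0.108 CPM. At 8 weeks every HFD library (13201234 to 15480388 reads) was deeper than every CD library (10562845 to 12611013 reads), and the part of depth in the 8 week results was not tested. The adipocyte markers (*Adipoq*, *Plin1*, *Plin4*, *Cidec*, *Fabp4*, *Lipe* and *Pparg*) summed to at least 14960 CPM in every mouse, whereas the 6 lymphocyte markers summed to at most 2.65 CPM. The 12 macrophage markers summed to 449.7 to 1843, 1047 to 3516 and 1204 to 13080 CPM in CD mice at 8, 20 and 34 weeks. In HFD mice they summed to 1162 to 3302, 4714 to 9643 and 5405 to 16060 CPM. Of them, 8, 9 and 11 were higher in HFD at 8, 20 and 34 weeks, 0 of the 12 stood at 0 in all mice of a group, and 0, 5 and 6 of the 7 adipocyte markers were lower. Of 8 endothelial markers 8, 6 and 8 were higher, with sums of at most 420.9 CPM, and of 7 fibroblast and progenitor markers 4, 7 and 4, with sums of at most 1720.0 CPM. In such bulk RNA, fewer cells of a type and less RNA per cell cannot be told apart.

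Most of the 9 genes were lower in HFD adipocytes. At 8 weeks 5 of the 9 genes fell with the diet and 0 rose, at 20 weeks 6 fell and 1 rose, and at 34 weeks 6 fell and 1 rose, by limma with an adjusted p under 0.05 (the rise was *Akt1* both times). Of all genes tested, 15.1% fell and 29.8% rose at 8 weeks, 18.7% fell and 38.3% rose at 20 weeks, and 15.7% fell and 27.5% rose at 34 weeks. The median log2 fold change of the 9 genes was -0.41, -0.64 and -0.58 at 8, 20 and 34 weeks, beside 0.11, 0.14 and 0.074 over all genes tested. TMM scaling moved those medians of all genes to 0.0058, -0.071 and -0.012. Within each time the HFD and CD mice did not overlap for 3 of the 9 genes at 8 weeks, 4 at 20 weeks and 0 at 34 weeks with the HFD mice lower, beside 7.14%, 11.1% and 0.986% of all genes.

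**Figure D1:**
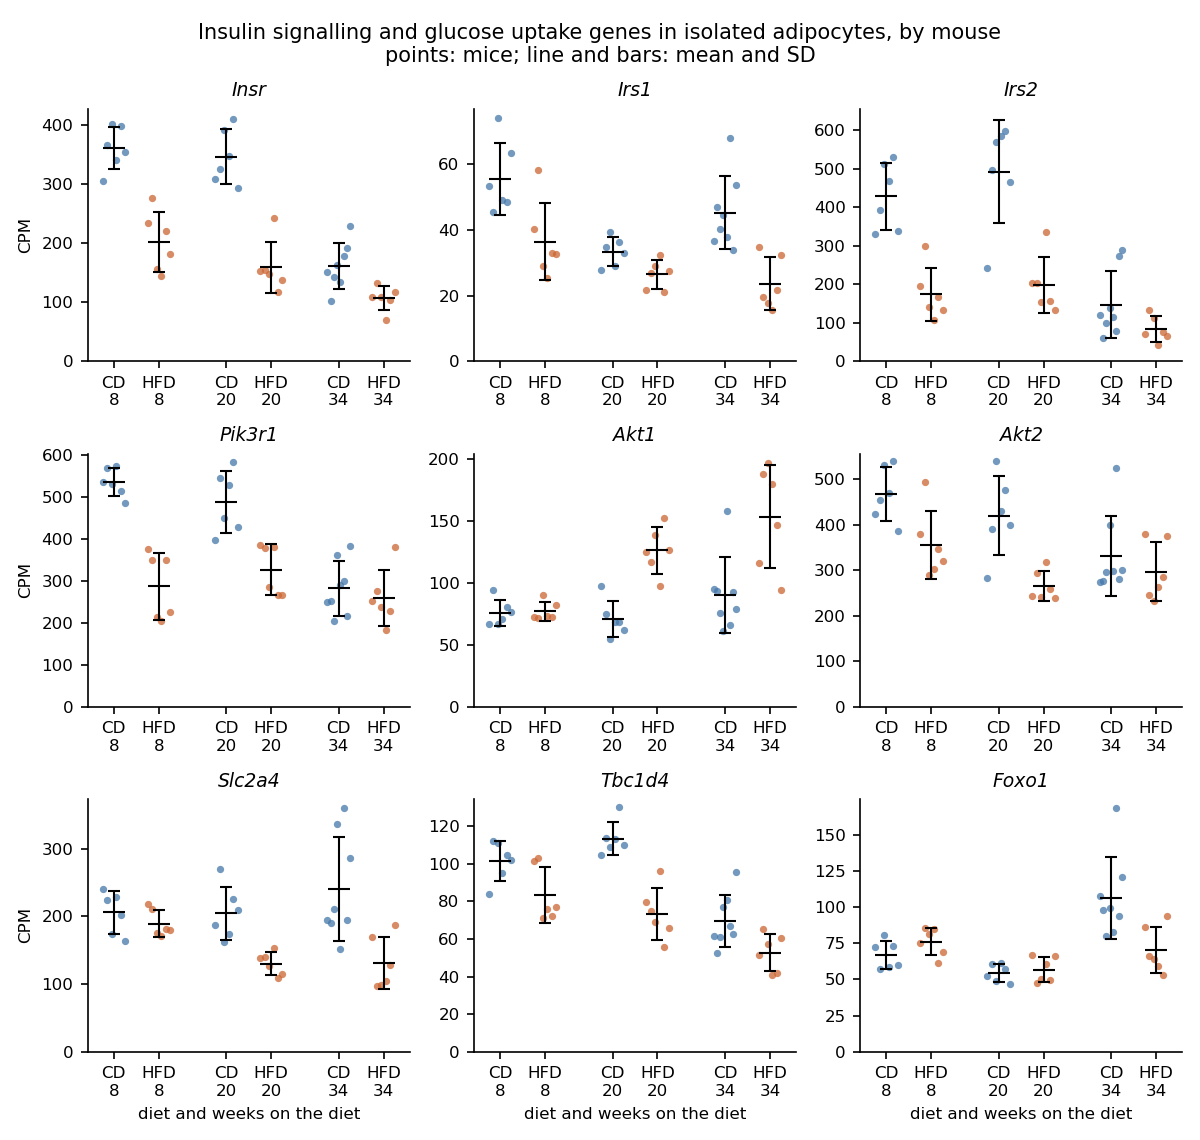
CPM (y axis, from 0) of the 9 genes in each mouse (points) by diet and weeks on the diet (x axis), with the group mean and SD. *Insr*, *Irs2* and *Pik3r1* of the 8 and 20 week CD mice lie high, with means of 347 to 362, 429 to 493 and 489 to 535.5 CPM. *Akt1* has its highest group means in the 20 and 34 week HFD mice.

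Per kilobase of exon, the order of the mean levels over all mice was *Slc2a4* (53.6 CPM per kb), *Akt2* (49.8), *Irs2* (39.3), *Pik3r1* (35.6), *Akt1* (24.0), *Insr* (16.0), *Tbc1d4* (10.7), *Foxo1* (8.50) and *Irs1* (4.07). The order differed between groups, since *Irs2* stood first in 8 and 20 week CD mice (67.9 and 78.0 CPM per kb) and *Akt2* in 34 week HFD mice (41.6), while *Irs1* stood last in all 6 groups. For *Irs2* the group means spanned 13.2 to 78.0 CPM per kb, while those of *Slc2a4* spanned 37.5 to 69.1.

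*Insr*, which encodes the insulin receptor (chr8:3150922-3279649 on GRCm38, minus strand), fell in HFD adipocytes at all 3 times. Its level in 8 week mice was 306 to 402 CPM (median 361) in CD and 144 to 277 (median 201) in HFD. At 20 weeks it was 294 to 411 CPM (median 337) in CD and 118 to 243 (median 151) in HFD. The 34 week values were 103 to 229.9 (median 158) and 70.5 to 132 (median 109.7). Every HFD mouse thus lay below every CD mouse at 8 and 20 weeks, and at 34 weeks the ranges overlapped although all 6 HFD mice were below the CD mean. *Insr* fell by 0.86 on the log2(CPM + 1) scale at 8 weeks (SE 0.17, limma adjusted p = 0.00016). It fell by 1.14 at 20 weeks (SE 0.17, adjusted p = 1.24e-06) and by 0.58 at 34 weeks (SE 0.16, adjusted p = 0.003787). In order of the group means, the CD mice at 8 and 20 weeks (362 and 347 CPM) formed 1 level and did not differ beyond their spread. The next mean, that of the 8 week HFD mice (203 CPM), was separated from them without overlap. It was followed by 34 week CD (162), 20 week HFD (159.5) and 34 week HFD (107), whose neighbours overlapped. The 34 week CD mice therefore held about as much *Insr* RNA as the 20 week HFD mice, values that are given side by side here and were not tested against each other.

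The adaptors *Irs1* (chr1:82233105-82291439, minus strand) and *Irs2* (chr8:10984681-11008929, minus strand) carry the signal from the receptor to PI3K. *Irs2* was 329.8 to 532 CPM (median 431) in 8 week CD and 109 to 299 (median 154) in 8 week HFD mice, with no overlap. At 20 weeks it was 242 to 599.6 CPM (median 533) in CD and 135 to 337 (median 181) in HFD mice, where CD mouse 1 (242 CPM) and HFD mouse 4 (337 CPM) crossed. *Irs2* fell by 1.35 on the log2 scale at 8 weeks (SE 0.31, limma adjusted p = 0.0009426) and by 1.32 at 20 weeks (SE 0.31, adjusted p = 0.000584), the largest differences of the 9 genes at both times. At 34 weeks both diets were low, with 60.8 to 291 (median 118) CPM in CD and 42.1 to 133 (median 74.1) in HFD mice. The fall of 0.71 there only just passed the test (SE 0.29, adjusted p = 0.04845). It was lost with a pseudocount of 5 (adjusted p = 0.05041), without the filter on low values (0.07423) and in a fit of the 34 week mice alone (0.147). With the macrophage covariate described further on the value was -0.49 (adjusted p = 0.4293), and centred on the adipocyte markers it was -0.16 (adjusted p = 0.6063). The call was also lost without any 1 of 8 of the 14 mice (CD mice 1, 4, 7 and 8 and HFD mice 1, 4, 5 and 6), with values of -0.86 to -0.53 over all mice left out and an adjusted p of up to 0.152.

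*Irs1* was lower in HFD mice at 8 and 34 weeks. Its level was 45.3 to 73.8 CPM (median 51.2) in 8 week CD and 25.5 to 58.2 (median 32.8) in 8 week HFD mice. At 20 weeks *Irs1* was 27.7 to 39.3 (median 33.9) under CD and 21.1 to 32.3 (median 27.3) under HFD. The 34 week values were 33.8 to 67.8 (median 42.3) and 15.7 to 34.6 (median 20.7). The HFD and CD ranges overlapped at each time. *Irs1* fell by 0.63 at 8 weeks (SE 0.18, limma adjusted p = 0.0062) and by 0.93 at 34 weeks (SE 0.17, adjusted p = 0.0001241). The 20 week value was -0.33 with a 95% confidence interval of -0.70 to 0.042 (adjusted p = 0.1239), and it passed the test with TMM scaling (-0.54, adjusted p = 0.02015). It also passed with median-of-ratios factors (adjusted p = 0.03034), edgeR (0.0251), DESeq2 (0.02887) and a fit of the 20 week mice alone (0.02506). In the other 7 of 12 alternatives it did not pass. Over all 12 the value ran from -0.54 to 0.20, so its direction also depended on the fit. Within each mouse the log2 ratio of *Irs1* to *Irs2* was higher in HFD by 0.72 at 8 weeks, with no overlap of the diets (exact permutation test, two-sided, adjusted p = 0.01299 over 9 ratio tests). It was higher by 0.99 at 20 weeks (exact permutation adjusted p = 0.01461). At 34 weeks the difference of the ratio was -0.23 (exact permutation adjusted p = 0.633). Per kilobase, *Irs1* made up 4.74% ± 1.37 of the sum of both adaptors in 20 week CD and 20.9% ± 10.4 in 34 week CD mice, so *Irs2* was the more abundant transcript in every group.

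Both adaptor genes carry, just before their RefSeq start, an E-box (CACGTG) next to the core of the insulin response element (CAAAACA, read on this strand as TGTTTTG). This element is known for FOXO binding in liver genes that insulin represses. The 250 bases before the start are shown for these genes because no other member with such bases available held both motifs. They are read 5′ to 3′ on the gene's strand, with the 2 motifs and the GC box (GGGCGG) in capitals, from RefSeq on GRCm38.p6 (chr1:82291440-82291689 and chr8:11008930-11009179).
Irs1: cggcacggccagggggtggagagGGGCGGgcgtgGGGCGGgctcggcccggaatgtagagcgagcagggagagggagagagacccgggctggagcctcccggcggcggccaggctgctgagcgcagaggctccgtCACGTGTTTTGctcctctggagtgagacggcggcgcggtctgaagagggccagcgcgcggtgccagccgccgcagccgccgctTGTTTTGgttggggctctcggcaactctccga
Irs2: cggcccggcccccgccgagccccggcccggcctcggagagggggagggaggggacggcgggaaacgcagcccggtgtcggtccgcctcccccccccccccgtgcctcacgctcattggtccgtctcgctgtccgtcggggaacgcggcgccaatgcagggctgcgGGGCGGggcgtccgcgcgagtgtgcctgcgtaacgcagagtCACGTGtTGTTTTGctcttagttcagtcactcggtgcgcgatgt
In *Irs1* the E-box starts 115 bases before the RefSeq start and overlaps the insulin response element core, and a further core lies 32 bases before it. In *Irs2* the E-box starts at 44 bases and the core at 37 bases before the start. Of all 32851 windows of that length, 6.02% hold the E-box and 5.56% the insulin response element core on either strand. Windows of 7 of the 9 genes were matched (12 windows in all), and *Insr* and *Slc2a4* had none. The FOXO core (GTAAACA, 3.17% of all windows) matched only in the first *Akt1* window, 161 bases before the start, and the GC box, held by 32.7% of all windows, matched in at least 1 window of each of the 7 genes. GENCODE vM21 places the starts of both adaptor genes further downstream, at 82291416 for *Irs1* (RefSeq 82291439) and 11008458 for *Irs2* (RefSeq 11008929). For these windows alone, the bases just after the RefSeq start were found in no GENCODE transcript of the gene. A match is a description of these letters only.

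*Pik3r1* encodes the p85α regulatory subunit of PI3K (chr13:101680761-101768217, minus strand). Its level was 486 to 573 CPM (median 534.5) in 8 week CD and 204 to 376 (median 288) in 8 week HFD mice, and 397 to 583 (median 489.8) and 266 to 386 (median 332) at 20 weeks. The diets did not overlap at either time. *Pik3r1* fell by 0.94 at 8 weeks (SE 0.17, limma adjusted p = 5.79e-05) and by 0.59 at 20 weeks (SE 0.17, adjusted p = 0.003563). The 20 week fall did not pass with the macrophage covariate (-0.29, adjusted p = 0.2862) or centred on the adipocyte markers (-0.057, adjusted p = 0.754). By 34 weeks the CD mice had come down to 203 to 384 (median 271) CPM, beside 183 to 380.3 (median 246) in HFD mice. The diet difference was then -0.12, with an interval of -0.44 to 0.20 (adjusted p = 0.5354). The change of the diet difference between 8 and 34 weeks was itself 0.82 (interaction, SE 0.23, adjusted p = 0.007816). In order, the CD groups at 8 and 20 weeks (535.5 and 489 CPM) stood without overlap above the other 4 groups, whose means of 259.6 to 327 CPM did not differ beyond their spread from one neighbour to the next.

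The genes of the AKT kinases went opposite ways under HFD at 20 weeks in the main fit, where *Akt2* fell and *Akt1* rose. *Akt2* (chr7:27591552-27640826, plus strand), the isoform best known for glucose uptake, was 387.5 to 541 CPM (median 462.5) in 8 week CD and 289 to 493 (median 334) in 8 week HFD mice. At 20 weeks *Akt2* was 282 to 540.0 (median 415) under CD and 239 to 317 (median 251) under HFD. The 34 week values were 273 to 524 (median 298) and 231 to 379.7 (median 274.5). The ranges overlapped at every time. It fell by 0.41 at 8 weeks (SE 0.16, limma adjusted p = 0.03276) and by 0.64 at 20 weeks (SE 0.16, adjusted p = 0.000853). The 34 week value was -0.15 (interval -0.45 to 0.15, adjusted p = 0.4158). The 8 week call was lost without the filter on low values (adjusted p = 0.0539) and without any 1 of CD mice 3 and 5 and HFD mice 3, 4 and 6. Over all mice left out the value was -0.51 to -0.36 and the adjusted p reached 0.0873. With the macrophage covariate the values were -0.13 and -0.17 at 8 and 20 weeks, neither past the test. Centred on the adipocyte markers they were -0.17 and -0.11 (limma adjusted p = 0.1854 and 0.3361), again neither past the test.

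*Akt1* (chr12:112653821-112674884, minus strand), the isoform tied more to growth, was 66.4 to 94.3 CPM (median 73.1) in 8 week CD and 71.4 to 90.3 (median 72.9) in 8 week HFD mice. At 20 weeks it was 54.9 to 97.0 (median 68.6) CPM in CD and 97.4 to 152 (median 126) in HFD mice, where the lowest HFD mouse stood just above the highest CD mouse. At 34 weeks the CD mice held 60.6 to 158 (median 85.8) CPM and the HFD mice 93.8 to 197 (median 163), with overlap, and all 6 HFD mice were above the CD mean. *Akt1* rose by 0.83 at 20 weeks (SE 0.17, limma adjusted p = 0.0001409) and by 0.77 at 34 weeks (SE 0.16, adjusted p = 0.0004633). The 8 week value was 0.030 (interval -0.32 to 0.38, adjusted p = 0.9017). It was the only one of the 9 genes that rose with the diet in this fit, beside 9 and 11 macrophage markers at 20 and 34 weeks, and neither rise passed the test with the mean of these markers as a covariate (0.23 and 0.31). The log2 ratio of *Akt2* to *Akt1* differed between HFD and CD by -0.44 at 8 weeks (exact permutation adjusted p = 0.07236), by -1.47 at 20 weeks (adjusted p = 0.01299) and by -0.92 at 34 weeks (adjusted p = 0.04845). The 34 week call was lost with a pseudocount of 5 and without any 1 of 11 of the 14 mice. Per kilobase, *Akt2* made up 77.9% ± 3.29, 76.6% ± 7.59 and 67.5% ± 9.67 of the RNA of both isoforms in CD mice at 8, 20 and 34 weeks. In HFD mice it was 72.1% ± 5.21, 54.8% ± 6.16 and 52.8% ± 12.2.

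**Figure D2:**
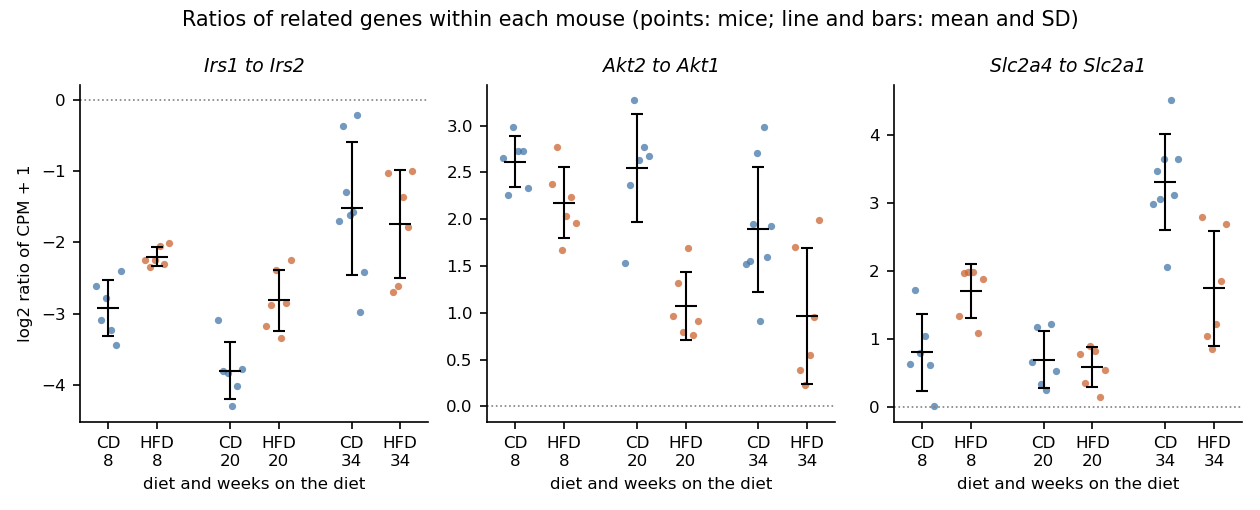
Log2 ratios of CPM + 1 (y axis) of *Irs1* to *Irs2*, *Akt2* to *Akt1* and *Slc2a4* to *Slc2a1* in each mouse (points) by diet and weeks on the diet, with the group mean and SD. The ratio of *Irs1* to *Irs2* of the 8 week HFD mice, at -2.34 to -2.01, lies above that of all 8 week CD mice, and the mean ratio of *Akt2* to *Akt1* is 2.54 in 20 week CD and 1.07 in 20 week HFD mice.

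*Slc2a4* (chr11:69942286-69948216, minus strand), the insulin-responsive transporter GLUT4, fell with HFD at 20 and 34 weeks. It was 164 to 241 CPM (median 213) in 8 week CD and 170.5 to 218 (median 181) in 8 week HFD mice, a difference of -0.11 on the log2 scale (interval -0.47 to 0.24, limma adjusted p = 0.6227). At 20 weeks it was 162 to 269.6 (median 198) CPM in CD and 108 to 153 (median 133) in HFD mice, with no overlap. At 34 weeks the CD mice held 151 to 360.2 (median 203) CPM and the HFD mice 97.2 to 187 (median 116). The 34 week ranges overlapped, and all 6 HFD mice were below the CD mean. *Slc2a4* fell by 0.64 at 20 weeks (SE 0.18, adjusted p = 0.002529) and by 0.86 at 34 weeks (SE 0.16, adjusted p = 0.0001821). Neither passed with the macrophage covariate (-0.13 and -0.47). The diet difference at 34 weeks was lower than that at 8 weeks by 0.75 (interaction, SE 0.24, adjusted p = 0.0187), while 20 against 8 weeks gave -0.52 (adjusted p = 0.1661).

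GLUT1 (*Slc2a1*), the transporter of basal glucose uptake, was lower in HFD mice at 8 and 20 weeks and higher at 34 weeks. It was 59.8 ± 20.3 CPM under HFD and 122 ± 35.9 under CD at 8 weeks (log2 -1.02, adjusted p = 0.0003726). The values were 87.0 ± 14.8 CPM under HFD and 126 ± 18.7 under CD at 20 weeks (log2 -0.53, adjusted p = 0.03436) and 38.7 ± 11.9 CPM under HFD and 23.0 ± 6.42 under CD at 34 weeks (log2 0.71, adjusted p = 0.004866). The log2 ratio of *Slc2a4* to *Slc2a1* within a mouse was therefore higher in HFD by 0.91 at 8 weeks (exact permutation adjusted p = 0.01948). It differed by -0.11 at 20 weeks (adjusted p = 0.633) and was lower in HFD at 34 weeks, with a difference of -1.57 (adjusted p = 0.01299).

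*Tbc1d4* (chr14:101442360-101609281, minus strand) encodes AS160, which holds GLUT4 vesicles inside the cell until AKT phosphorylates it. It was 84.2 to 112 CPM (median 103) in 8 week CD and 71.2 to 103 (median 76.6) in 8 week HFD mice. At 20 weeks *Tbc1d4* was 105 to 130.1 (median 112) under CD and 55.6 to 96.3 (median 72.0) under HFD. The 34 week values were 52.4 to 95.7 (median 64.8) and 41.0 to 65.2 (median 54.3). The diets were apart at 20 weeks and overlapped at the other times. *Tbc1d4* fell by 0.64 at 20 weeks (SE 0.13, limma adjusted p = 0.0001309) and by 0.39 at 34 weeks (SE 0.12, adjusted p = 0.01062, but 0.05984 in a fit of the 34 week mice alone). The 8 week value was -0.29 (interval -0.56 to -0.021, adjusted p = 0.07284). It passed the test with TMM scaling (-0.39, adjusted p = 0.0208), edgeR (adjusted p = 0.02399) and DESeq2 (adjusted p = 0.02062). It also passed without any 1 of CD mouse 1 and HFD mice 1 and 2, with -0.35 to -0.25 over all mice left out and an adjusted p down to 0.0321.

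*Foxo1* (chr3:52268337-52350109, plus strand), a transcription factor that AKT restrains, differed with the diet at 34 weeks. Its level was 57.2 to 80.7 CPM (median 66.3) in 8 week CD and 61.3 to 85.5 (median 78.2) in 8 week HFD mice. At 20 weeks *Foxo1* was 46.6 to 61.6 (median 54.7) under CD and 47.7 to 66.6 (median 55.3) under HFD. The 34 week values were 80.2 to 168.5 (median 98.6) and 52.9 to 93.7 (median 65.0). The diets overlapped each time, and the 34 week CD mice stood highest. The log2 difference was 0.18 at 8 weeks (interval -0.11 to 0.48, limma adjusted p = 0.2998) and 0.050 at 20 weeks (interval -0.24 to 0.34, adjusted p = 0.7838). *Foxo1* fell by 0.58 at 34 weeks (SE 0.13, adjusted p = 0.001026). The difference at 34 weeks was lower than that at 8 weeks by 0.77 (interaction, SE 0.20, adjusted p = 0.004014) and lower than that at 20 weeks by 0.63 (SE 0.20, adjusted p = 0.03451). The latter was lost with TMM scaling (adjusted p = 0.1095) and without any 1 of 8 of the 26 mice. The 34 week fall did not pass with the macrophage covariate (-0.42, adjusted p = 0.09689) or centred on the adipocyte markers (-0.040, adjusted p = 0.7964).

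**Figure D3:**
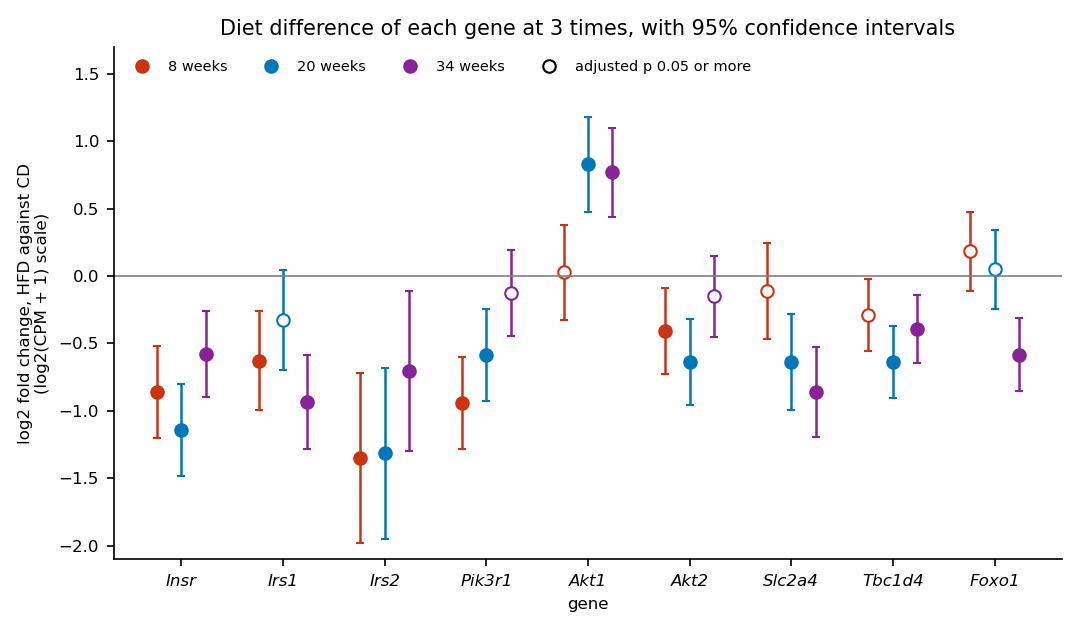
Log2 fold change of HFD against CD (y axis, log2(CPM + 1) scale) of each gene (x axis) at 8, 20 and 34 weeks, with 95% confidence intervals from limma; filled points have an adjusted p under 0.05. *Insr* and *Irs2* lie below 0 at all 3 times, *Pik3r1* runs from -0.94 to -0.12 and *Slc2a4* from -0.11 to -0.86 between 8 and 34 weeks, and *Akt1* lies above 0 at 20 and 34 weeks.

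Some of these genes also changed with time in CD mice, which were older at the later times. Between 8 and 20 weeks on CD 1 gene fell and 0 rose, against 1.88% and 1.7% of all genes. The gene was *Irs1*, which dropped by 0.71 (SE 0.18, limma adjusted p = 0.02056) with all 6 mice below every 8 week mouse. The call was lost without 8 week CD mouse 3 or 20 week CD mouse 4 (-0.76 to -0.63 over all mice left out, adjusted p up to 0.0751). Between 8 and 34 weeks on CD 5 genes fell and 1 rose, against 24.6% and 40.1% of all genes. *Irs2* dropped by 1.71 (adjusted p = 8.285e-06), *Insr* by 1.18 (2.034e-07) and *Pik3r1* by 0.95 (5.175e-06), each with all 8 mice below every 8 week mouse. The share of all genes that separate in this way was not counted for the comparisons over time. *Tbc1d4* dropped by 0.55 (adjusted p = 0.0002575) and *Akt2* by 0.52 (0.002497), while *Foxo1* rose by 0.63 (0.0001379). *Slc2a4* gave 0.18 (interval -0.16 to 0.51) and *Akt1* 0.20 (interval -0.13 to 0.53), neither past the test. With the macrophage covariate *Slc2a4* was higher (0.64, limma adjusted p = 0.001618), *Akt1* was lower (-0.35, 0.03028) and the *Akt2* fall did not pass (-0.095, 0.5948). Centred on the adipocyte markers *Slc2a4* was higher as well (0.42, adjusted p = 0.002904).

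In HFD mice 3 genes fell and 1 rose between 8 and 20 weeks, against 15.3% and 21.2% of all genes. *Slc2a4* dropped by 0.54 (limma adjusted p = 0.0165), *Foxo1* by 0.42 (0.02159) and *Akt2* by 0.40 (0.04261), and *Akt1* rose by 0.70 (0.002541). The *Akt2* call was lost without any 1 of 7 of the 12 mice (-0.46 to -0.30 over all mice left out). That of *Foxo1* was lost without 20 week HFD mouse 2 or 5 (-0.48 to -0.38). With the macrophage covariate none of these passed: *Slc2a4* gave -0.11 (limma adjusted p = 0.7858), *Foxo1* -0.24 (0.4626), *Akt2* -0.0054 (0.9908) and *Akt1* 0.18 (0.5203). Centred on the adipocyte markers, *Slc2a4* (-0.091, 0.5351), *Akt2* (0.045, 0.7223) and *Foxo1* (0.027, 0.8844) did not pass, while *Akt1* still did. Between 8 and 34 weeks on HFD 5 genes fell and 1 rose, against 20.8% and 31.7% of all genes. *Irs2* dropped by 1.07 (adjusted p = 0.004753), *Insr* by 0.90 (5.722e-05), *Tbc1d4* by 0.66 (0.0001297), *Irs1* by 0.61 (0.005484) and *Slc2a4* by 0.57 (0.006784). *Akt1* rose by 0.94 (adjusted p = 4.758e-05), with all 6 mice above every 8 week HFD mouse. For *Insr* and *Tbc1d4* all 6 mice lay below every 8 week HFD mouse. *Insr*, *Irs2* and *Tbc1d4* were thus lower at 34 than at 8 weeks on both diets in the main fit. On HFD, the falls of *Insr* (-0.54, limma adjusted p = 0.06308) and *Irs2* (-0.76, 0.1843) did not pass with the macrophage covariate. Neither did *Irs1*, *Slc2a4* or *Akt1*. Centred on the adipocyte markers, *Irs2* (-0.52, 0.1369) and *Tbc1d4* (-0.11, 0.5647) did not pass on HFD. The fall of *Tbc1d4* on CD did not pass there either (-0.31, 0.09243). These comparisons over time share their 8 week mice with each other and with the diet comparisons, so their values stand side by side only.

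The difference between diets was itself compared between times. Of the 9 genes, 0 changed their diet difference between 8 and 20 weeks, 1 between 20 and 34 weeks and 4 between 8 and 34 weeks, against 4.49%, 10.5% and 28.8% of all genes. The 4 genes were *Pik3r1* (0.82), *Akt1* (0.74, SE 0.24, limma adjusted p = 0.0185), *Slc2a4* (-0.75) and *Foxo1* (-0.77). Centred on the adipocyte markers, *Akt1* (1.05, adjusted p = 0.08608), *Slc2a4* (-0.44, 0.07816) and *Foxo1* (-0.46, 0.1226) did not pass. *Pik3r1* still passed on that scale, and *Akt2* passed there too (0.56, adjusted p = 0.01013). For 20 against 8 weeks, *Akt1* (0.80, p = 0.002505 and adjusted p = 0.0516 by limma) and *Slc2a4* (p = 0.04185) had an unadjusted p under 0.05. With DESeq2 *Akt1* passed the test (adjusted p = 0.02924), and with edgeR 0 of the 9 genes did. For *Insr* and *Irs2* the change between 8 and 34 weeks was 0.28 (interval -0.19 to 0.75) and 0.64 (interval -0.22 to 1.51), neither past the test.

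Macrophage RNA moved with some of these genes from mouse to mouse. Across the 38 mice, deviations of *Akt1* from its group means followed those of the mean of the 12 macrophage markers with r = 0.76 and those of the mean of the 7 adipocyte markers with r = -0.85, as a description over mice that share the same libraries. For *Akt2* these values were -0.65 and 0.82, for *Slc2a4* -0.63 and 0.76 and for *Irs1* -0.51 and 0.74. For *Foxo1* they were -0.33 and 0.52, for *Insr* -0.43 and 0.53, for *Pik3r1* -0.39 and 0.50, for *Tbc1d4* -0.17 and 0.30 and for *Irs2* -0.19 and 0.23. In CD mouse 5 at 34 weeks, which had the highest *Akt1* of its group (158 CPM), the macrophage markers also summed highest (13080 CPM), and in CD mouse 6, highest in *Slc2a4* (360.2 CPM) and *Foxo1* (168.5 CPM), they summed lowest (1204 CPM).

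**Figure D4:**
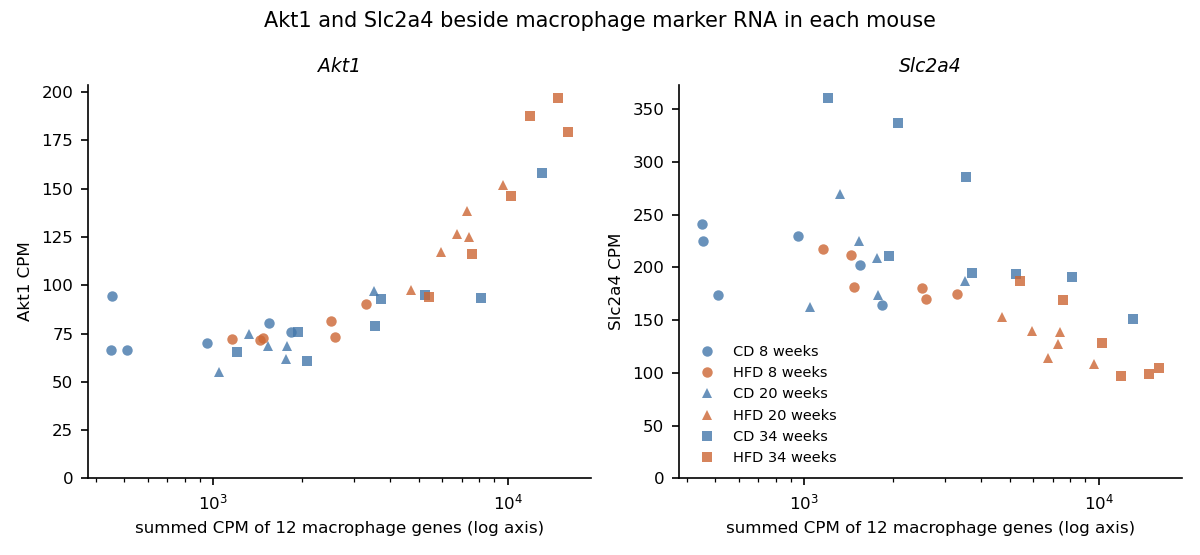
CPM of *Akt1* and *Slc2a4* (y axes, from 0) against the summed CPM of 12 macrophage genes (x axis, log scale) in each of the 38 mice, by diet (colour) and weeks (symbol). *Akt1* is at most 97.4 CPM in the mice with sums up to 5405 CPM and reaches 197 CPM at a sum of 14860 CPM, and the lowest *Slc2a4* value, 97.2 CPM, stands at a sum of 11940 CPM.

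With the mean of the macrophage markers as a covariate, 4, 3 and 1 of the 9 genes differed with the diet at 8, 20 and 34 weeks, beside 37.9%, 28.2% and 5.89% of all genes. *Insr* (-0.67 and -0.81) and *Irs2* (-1.18 and -1.04) still passed the test at 8 and 20 weeks, as did *Pik3r1* at 8 weeks (-0.77), *Tbc1d4* at 20 weeks (-0.53) and *Irs1* at 34 weeks (-0.60). The falls of *Insr* at 34 weeks (-0.33, limma adjusted p = 0.2669), *Irs1* at 8 weeks (-0.37, 0.09184) and *Tbc1d4* at 34 weeks (-0.32, 0.1992) did not pass. *Akt1* gave 0.23 at 20 weeks (limma adjusted p = 0.2598) and 0.31 at 34 weeks (0.1565), and at 8 weeks it was lower in HFD (-0.33, adjusted p = 0.04249). *Slc2a4* gave -0.13 at 20 weeks (adjusted p = 0.6126) and -0.47 at 34 weeks (0.06065). Relative to the mean of the adipocyte markers, the median of all genes became 0.35, 0.67 and 0.62 at 8, 20 and 34 weeks. *Insr* was then lower at 8 and 20 weeks (-0.62 and -0.61) and gave -0.039 at 34 weeks (adjusted p = 0.8129). On that scale *Akt1* was higher at 20 and 34 weeks (1.36 and 1.31). *Slc2a4* gave -0.11 (adjusted p = 0.4323) at 20 weeks and still passed the test at 34 weeks (-0.32). *Tbc1d4* gave -0.11 at 20 weeks (adjusted p = 0.566) and 0.15 at 34 weeks (0.3879). *Pik3r1* (0.42) and *Akt2* (0.39) were higher in HFD at 34 weeks. *Foxo1* was higher in HFD at 8 and 20 weeks on that scale (0.42 and 0.58) and gave -0.040 at 34 weeks. The marker genes themselves differed with the diet, as counted above, so both fits also take away what moves with them.

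The members also differed in which genes they resembled over the 38 mice. By Pearson's r of log2(CPM + 1), *Slc2a4* was most like *Fbxo45* (0.91), *Ginm1* (0.91) and *Lipe* (0.91), the last being hormone-sensitive lipase and 1 of the 7 adipocyte markers. *Foxo1* was most like *Klf15* (0.87), *Pparg* (0.87) and *Klhl8* (0.84), of which *Pparg* is the master regulator of the adipocyte and also 1 of the 7 markers. *Akt2* was most like *Aco1* (0.93), *Crat* (0.93) and *Gys1* (0.93). *Akt1* had an r of 0.96 with *Tmem164* and 0.955 with *Ywhah*, both among the 3 highest. *Irs2* was most like *Golgb1* (0.95), *Zbtb20* (0.94) and *Adamts12* (0.94). *Insr* came closest to *Acss3* (0.96), *Slc1a3* (0.96) and *Scn7a* (0.96). *Pik3r1* came closest to *Podn*, *Tshz2* and *Abi3bp* (0.89 to 0.91), *Tbc1d4* to *Kat2b*, *Dnhd1* and *Sec31b* (0.91 to 0.92) and *Irs1* to *Gzf1*, *Epm2a* and *Mknk2* (0.85 to 0.87). Among the members, deviations from the group means were most alike for *Insr* and *Irs2* (r = 0.81), *Insr* and *Tbc1d4* (0.77), *Irs1* and *Akt2* (0.73) and *Pik3r1* and *Tbc1d4* (0.72), and most opposed for *Akt1* and *Slc2a4* (-0.69). Correlations of the deviations from the group means were 0.64 to 0.93 for the 27 pairs of a member and a gene most like it. All these correlations describe the libraries, and points of one group share diet and age.

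The wider pathway was followed with 96 further genes in 6 lists, of which 94 had values and 91 were tested. Of these 91, 24 rose and 18 fell with HFD at 8 weeks, 38 rose and 18 fell at 20 weeks, and 28 rose and 19 fell at 34 weeks. The shares called, 46.2%, 61.5% and 51.6%, lie near the 44.9%, 57% and 43.2% of all genes, so what follows is a description of named genes.

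**Figure D5:**
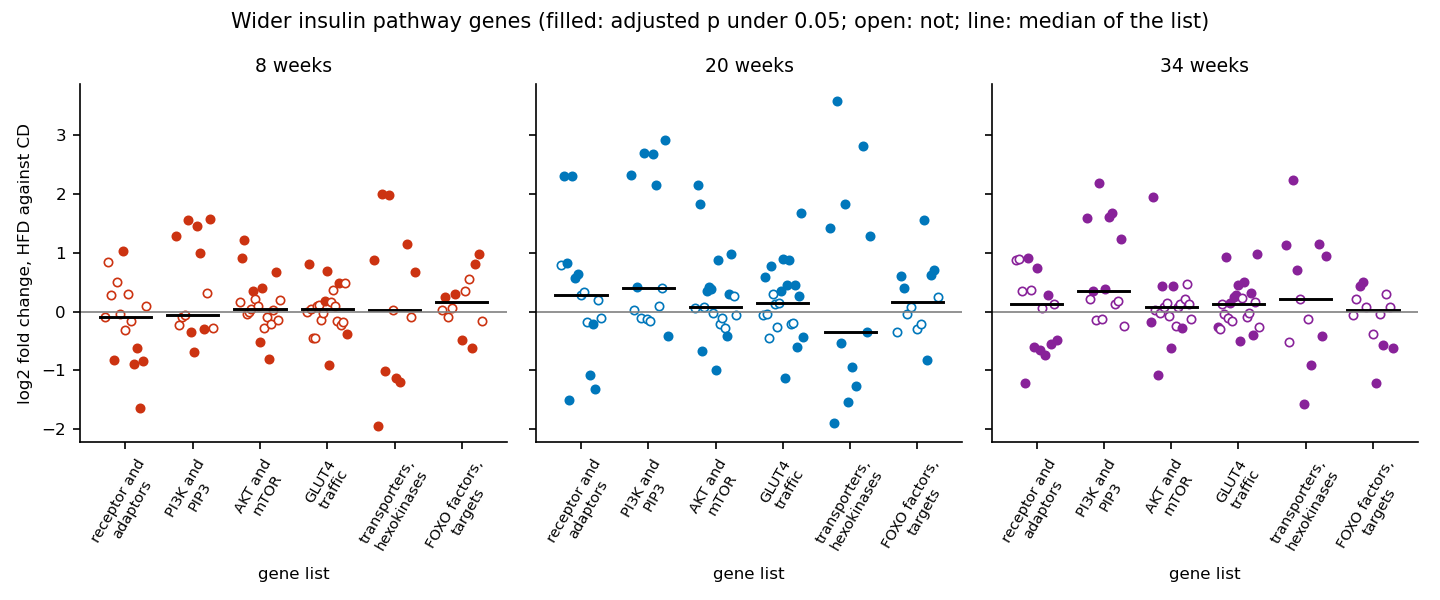
Log2 fold change of HFD against CD (y axis) of the 91 further pathway genes in 6 lists (x axis) at 8, 20 and 34 weeks; filled points have a limma adjusted p under 0.05, open points do not, and lines are list medians. The medians of the 6 lists lie between -0.35 and 0.40, and single PI3K, transporter and hexokinase genes reach 2 or more at 20 weeks.

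Near the receptor, 1, 5 and 3 of 15 genes rose and 5, 4 and 6 fell at 8, 20 and 34 weeks. *Grb10*, an adaptor that dampens receptor signalling, fell in all 6 HFD mice at 20 weeks (43.5 ± 4.99 CPM under HFD and 126 ± 18.3 under CD, log2 -1.50, adjusted p = 3.72e-08) and at 34 weeks. Its 34 week level was 22.9 ± 7.88 CPM under HFD and 53.0 ± 10.2 under CD (log2 -1.21, adjusted p = 2.015e-06), and the diets did not overlap at either time. Its relative *Grb14*, also an inhibitor of the receptor, rose at 20 weeks (48.2 ± 8.57 CPM under HFD and 10.2 ± 5.26 under CD, log2 2.30, adjusted p = 8.218e-08) and at 34 weeks (log2 0.91, adjusted p = 0.005592). *Socs1*, which targets IRS proteins, fell at 8 weeks (15.7 ± 8.24 CPM under HFD and 46.4 ± 7.78 under CD, log2 -1.65, adjusted p = 5.317e-06) and at 20 weeks (log2 -1.31, adjusted p = 2.673e-05). *Sh2b2*, an adaptor of the receptor, fell at 8 weeks (log2 -0.88, adjusted p = 0.002299) and at 34 weeks (log2 -0.74, adjusted p = 0.005649). The receptor inhibitor *Enpp1* rose at 20 weeks (log2 2.30, adjusted p = 1.257e-05) and the phosphatase gene *Ptpn1*, whose product dephosphorylates the receptor, at 34 weeks (log2 0.73, adjusted p = 0.001015). *Irs3*, an adaptor of rodent adipocytes, was 43.2 ± 11.8 CPM under HFD and 20.9 ± 7.63 under CD at 8 weeks (log2 1.03, adjusted p = 0.0007308). At 34 weeks it was 36.8 ± 15.5 CPM under HFD and 53.8 ± 12.6 under CD (log2 -0.61, adjusted p = 0.0228), where 5 of 6 HFD mice were below the CD mean.

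Among 13 genes of PI3K and PIP3, 5, 6 and 7 rose and 3, 1 and 0 fell. The genes that rose most are known mainly from leukocytes: *Pik3r5* (log2 1.58, adjusted p = 0.01842 at 8 weeks, log2 2.92, adjusted p = 3.289e-05 at 20 weeks), the adaptor *Pik3ap1* (log2 2.69, adjusted p = 3.507e-05 at 20 weeks, log2 2.18, adjusted p = 0.0005907 at 34 weeks) and the catalytic subunit *Pik3cg* (log2 1.68, adjusted p = 9.079e-05 at 34 weeks). They rose beside 8 to 11 of the 12 macrophage markers, and the part of these cells in the rise was not tested for them. Of the catalytic subunits that act in most cells, *Pik3cb* (71.7 ± 11.6 CPM under HFD and 118 ± 24.8 under CD, log2 -0.69, adjusted p = 0.0005063) and *Pik3ca* (94.7 ± 6.62 CPM under HFD and 120.0 ± 7.70 under CD, log2 -0.34, adjusted p = 0.0002844) fell at 8 weeks, next to the regulatory *Pik3r1*.

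In the AKT and mTOR list, 5, 8 and 3 of 19 genes rose and 2, 3 and 4 fell. *Pde3b*, the phosphodiesterase by which insulin restrains lipolysis, fell at all 3 times. It was 518 ± 131 CPM under HFD and 731 ± 114 under CD at 8 weeks (log2 -0.52, adjusted p = 0.02475), and the difference was log2 -0.99, adjusted p = 3.933e-05 at 20 weeks and log2 -0.62, adjusted p = 0.004981 at 34 weeks. *Deptor*, an inhibitor of mTOR, rose at 8 weeks (385.5 ± 58.4 CPM under HFD and 167 ± 41.3 under CD, log2 1.22, adjusted p = 1.744e-05) and at 20 weeks (329.6 ± 49.0 CPM under HFD and 96.7 ± 37.5 under CD, log2 1.83, adjusted p = 2.053e-08). At 34 weeks *Deptor* gave log2 0.024, adjusted p = 0.9257. *Eif4ebp1*, a translation inhibitor downstream of mTOR, fell at 20 weeks (log2 -0.66, adjusted p = 0.001259) and 34 weeks (log2 -1.08, adjusted p = 1.328e-05). *Rictor*, a subunit of the mTOR complex that phosphorylates AKT, fell at 8 weeks (log2 -0.81, adjusted p = 0.002466).

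For GLUT4 traffic, 4, 9 and 8 of 21 genes rose and 2, 3 and 3 fell. *Ralgapa2*, a subunit of the RalA GTPase-activating complex that AKT inhibits, fell at all 3 times: log2 -0.91, adjusted p = 0.0001342 at 8 weeks, log2 -1.13, adjusted p = 2.581e-06 at 20 weeks and log2 -0.50, adjusted p = 0.01405 at 34 weeks. *Rala* itself, the GTPase it restrains, rose by 0.69 at 8 weeks (adjusted p = 2.106e-05) and by 0.89 at 20 weeks (1.713e-07). *Sort1*, a sorting receptor of GLUT4 vesicles, fell at 20 weeks (639 ± 77.3 CPM under HFD and 965 ± 49.6 under CD, log2 -0.60, adjusted p = 0.0008734) and 34 weeks (log2 -0.40, adjusted p = 0.01982). The vesicle SNARE gene *Vamp2* fell at 8 weeks (log2 -0.38, adjusted p = 0.01381). *Tbc1d1*, the relative of *Tbc1d4* better known from muscle, rose at 20 weeks (52.1 ± 9.88 CPM under HFD and 16.1 ± 5.06 under CD, log2 1.67, adjusted p = 1.057e-06) and 34 weeks (log2 0.99, adjusted p = 0.001006), where *Tbc1d4* fell.

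Of 11 transporters and hexokinases, 5 rose at each time and 4, 6 and 3 fell. The shares called were 81.8%, 100% and 72.7%, beside 44.9%, 57% and 43.2% of all genes, and the list was not tested as a set. *Hk2*, the insulin-regulated hexokinase, fell in all 6 HFD mice at 8 weeks (243.5 ± 83.9 CPM under HFD and 906 ± 148.5 under CD, log2 -1.95, adjusted p = 6.909e-07) and at 20 weeks (323 ± 98.9 CPM under HFD and 1215 ± 437 under CD, log2 -1.89, adjusted p = 1.892e-07) without overlap. At 34 weeks *Hk2* was 133 ± 36.7 CPM under HFD and 193 ± 57.0 under CD (log2 -0.52, adjusted p = 0.05929). The transporter *Slc2a12* fell at 20 weeks (log2 -1.54, adjusted p = 1.235e-06) and 34 weeks (log2 -1.58, adjusted p = 4.019e-06). *Hk3*, a hexokinase of myeloid cells, was the largest rise of this list at 20 weeks (146 ± 37.3 CPM under HFD and 15.7 ± 18.2 under CD, log2 3.58, adjusted p = 1.192e-06), and *Slc2a6* rose with it (log2 2.81, adjusted p = 1.254e-06).

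Of 12 genes in the list of FOXO factors and known FOXO targets, which holds the factors *Foxo3* and *Foxo4*, 4, 5 and 2 rose and 2, 1 and 3 fell. *Foxo3* was 1 of the 2 rises at 34 weeks (log2 0.51, adjusted p = 0.02576). *Sesn1* (log2 0.81, adjusted p = 0.0003119) and *Sesn3* (log2 0.98, adjusted p = 0.004406), stress-induced sestrins, rose at 8 weeks, and *Pdk4*, a kinase that shuts off pyruvate dehydrogenase, rose at 20 weeks (log2 1.56, adjusted p = 0.004112). *Klf15*, the gene most like *Foxo1* over the mice, fell at 34 weeks (33.9 ± 11.7 CPM under HFD and 84.7 ± 44.8 under CD, log2 -1.22, adjusted p = 0.0004179), and so did *Txnip*, which limits glucose uptake (log2 -0.62, adjusted p = 0.01082). *Pnpla2*, the adipose triglyceride lipase, fell by 0.63 at 8 weeks (adjusted p = 0.01427) and by 0.82 at 20 weeks (0.001122).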

How the data were processed

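RNA-seq values of perigonadal adipocytes of 38 male mice were analysed, in 6 groups by diet and weeks. Per the labels, each mouse has 3 technical replicates (114 samples), and the authors deposited a CPM table with 1 merged column for each mouse. Per the submitters' processing notes, reads were aligned to mm10 with STAR 2.5 (2.5.2b is also named) and counted with featureCounts of Subread 1.5.1. The methods name TMM scaling, whereas each deposited CPM column sums to 1000000, and TMM was therefore kept as an alternative. All were whole multiples of 1 read (100% within 0.1 reads), and these whole reads were used for edgeR 4.0.16 and DESeq2 1.42.0. At 8, 20 and 34 weeks edgeR called 4521, 6042 and 4478 genes, DESeq2 4704, 6077 and 4713, and limma 4648, 5894 and 4468.

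The main test was limma 3.58.1 (moderated, with the trend, in R 4.3.3) on log2(CPM + 1) with a pseudocount of 1, for genes with a mean above 2.0, with all 38 mice in 6 groups (32 residual degrees of freedom), Benjamini-Hochberg adjustment over 10343 genes and a threshold of 0.05. A fold change on this scale understates changes of low genes. Ratios within mice were compared by exact permutation tests with adjustment over 9 tests. The fit was tested on simulated data. Levels per kb used exon unions of GENCODE vM21, not the authors' vM2. All members and, of each wider list and diet comparison, up to 2 of the largest rises and falls among the called genes could be named. The 9 genes and the lists were chosen with earlier results of these data known. Alternatives were other pseudocounts, filters and scalings, count tests, separate fits, a replicate block, marker gene terms and each mouse left out. The symbols *Adgre1*, *Trarg1* and *Stxbp3* were not analysed here, and some genes that the rule names are not reported here. Mice are separate animals, and no batch was given in the labels.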

Additional observations from a re-analysis of the deposited data

Results flagged for a closer look

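In 6 of 54 groups of a gene, 1 mouse stood far from the others of its group by Dixon's criterion, where chance gives about 1 in 20 for a single group. The 54 groups share the same 38 mice and are not independent, so the count of 6 cannot be read against that rate. At 20 weeks on HFD, mouse 4 held 242.9 CPM of *Insr* while the others held 118.2 to 155.6, and the same mouse held 336.8 CPM of *Irs2* beside 134.9 to 203.8. On CD at 20 weeks, mouse 1 held 242.4 CPM of *Irs2* beside 465.9 to 599.6, and mouse 5 held 130.1 CPM of *Tbc1d4* beside 104.6 to 114. Of the 34 week CD mice, mouse 5 held 158.2 CPM of *Akt1* beside 60.64 to 94.91, and mouse 6 held 168.5 CPM of *Foxo1* beside 80.23 to 120.8. Without any of these mice, the falls of *Insr* and *Irs2* at 20 weeks, of *Tbc1d4* at 20 weeks and of *Foxo1* at 34 weeks and the rise of *Akt1* at 34 weeks still passed the test.

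In 5 results the diet difference itself differed between times by the interaction term of limma. Between 8 and 34 weeks it changed by 0.82 for *Pik3r1* (adjusted p = 0.007816), by 0.74 for *Akt1* (0.0185), by -0.75 for *Slc2a4* (0.0187) and by -0.77 for *Foxo1* (0.004014). Between 20 and 34 weeks it changed by -0.63 for *Foxo1* (adjusted p = 0.03451). That call was lost with TMM scaling, median-of-ratios factors, edgeR, separate fits or no filter, and without any 1 of 8 of the 26 mice. Of all genes tested, 28.8% changed their diet difference between 8 and 34 weeks and 10.5% between 20 and 34 weeks. Of these 5 results, only that of *Pik3r1* still passed when centred on the adipocyte markers.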

How the results depend on the processing

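Over the 27 diet results of the 9 genes and 10 fits without a marker term, 254 of 270 values kept their call, 6 lost it, 10 gained it and 0 turned. The marker terms moved more. With the macrophage covariate the counts were 3 genes at 20 weeks and 1 at 34 weeks (28 and 7 of the wider genes), 0 for HFD at 20 against 8 weeks, 1 for HFD at 34 against 8 weeks and 2 for the diet difference at 34 against 20 weeks, and *Akt1* turned to -0.33 at 8 weeks and to -0.35 for CD at 34 against 8 weeks. Centred on the adipocyte markers 4 genes passed at 20 weeks, beside 75% of all genes. HFD at 20 against 8 weeks gave 2, and the diet difference gave 0 and 2 at 34 against 20 and 8 weeks. The last 2 genes of this centred fit were *Pik3r1* and *Akt2*. There, turned values at 34 weeks were 0.42 for *Pik3r1*, 0.39 for *Akt2* and 0.15 for *Tbc1d4*, for HFD at 20 against 8 weeks 0.045 for *Akt2* and 0.027 for *Foxo1*, and for HFD at 34 against 8 weeks 0.41 for *Pik3r1*, 0.28 for *Akt2* and 0.41 for *Foxo1*. For the diet difference at 20 against 8 weeks, 1 gene passed with a pseudocount of 5, median-of-ratios factors or DESeq2 and 2 in separate fits. At 34 against 20 weeks 0 passed without a filter, with TMM, median-of-ratios factors, edgeR or separate fits. Separate fits called 25 wider genes at 34 weeks. The shares of all genes called are not reported here for separate fits, the replicate block or mice left out. Nor are they reported for alternative fits of the comparisons over time or of the diet difference. Those counts are therefore not set against all genes. The ratio of *Akt2* to *Akt1* at 34 weeks was -0.89 with a pseudocount of 5. The cause of these changes was not tested.

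With each mouse left out, 4 to 6, 7 to 7 and 6 to 7 of the 9 genes differed with the diet at 8, 20 and 34 weeks, and 31 to 45, 51 to 59 and 34 to 54 of the wider genes. Over time the counts were 0 to 1 and 6 to 7 on CD and 2 to 5 and 6 to 6 on HFD, at 20 and 34 against 8 weeks (2 without 20 week HFD mouse 5). For the diet difference they were 0 to 1 at 20 against 8 weeks (1 without 8 week HFD mouse 3, 20 week CD mouse 1 or 20 week HFD mouse 4), 0 to 2 at 34 against 20 weeks and 4 to 4 at 34 against 8 weeks. The 34 against 20 week count was 0 without 20 week CD mice 3 or 6, 20 week HFD mice 1 or 6 or 34 week HFD mice 2, 3 or 5, and 2 without 20 week CD mouse 1, 20 week HFD mouse 4, 34 week CD mouse 6 or 34 week HFD mouse 1. The ratio of *Irs1* to *Irs2* ran from 0.62 to 0.83, 0.88 to 1.13 and -0.43 to -0.037 at 8, 20 and 34 weeks, that of *Slc2a4* to *Slc2a1* from 0.75 to 1.09, -0.20 to -0.00056 and -1.79 to -1.40, and that of *Akt2* to *Akt1* from -0.56 to -0.34 (passing without 8 week CD or HFD mouse 2), -1.67 to -1.32 and -1.13 to -0.77.

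The mice share only a number across groups: of 18 pairs of one number, the correlation of deviations ran from -0.51 to 0.53 (median -0.072), 8 were over 0.1, and 3 mice correlated best with their own number. With the replicate block 5, 7 and 6 of the 9 genes differed with the diet, 40, 56 and 41 of the wider genes, and 1, 6, 3 and 6 genes over time. The diet difference gave 0, 1 and 5 genes, the added one being *Irs2* at 34 against 8 weeks. The calls lost with the block were *Irs2* at 34 weeks (-0.33, adjusted p = 0.3165 by limma) and *Akt2* for HFD at 20 against 8 weeks (-0.40, adjusted p = 0.0622). The ratio tests of 6 against 6 mice cannot go below p = 0.002165.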

Other observations

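The 34 week HFD mice spread widely in several of these values at once. In mice 1 to 6 the macrophage markers summed to 7573, 11940, 14860, 16060, 10310 and 5405 CPM. In the same order *Akt1* was 116.1, 187.5, 196.9, 179.4, 146.5 and 93.79 CPM, and *Slc2a4* was 169.5, 97.15, 99.34, 104.7, 128.1 and 187.0 CPM. Mice 1 and 6 thus had the lowest sums and *Akt1* values and the highest *Slc2a4* values of the group. The labels give no difference between these 6 mice.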
